A study of Aedes albopictus with 4 samples.

Results

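Translation factors are the proteins that place the ribosome on an mRNA, move it along and release the finished chain. The genes described here are the cytosolic initiation, elongation and release factors of Aedes albopictus, the Asian tiger mosquito. They were chosen by product name, as all genes named eukaryotic initiation factor, elongation factor 1 or 2, or eukaryotic peptide chain release factor, leaving out names with "kinase" or "transcription". The rule found 55 of 25320 genes in the deposited table. RNA was sequenced from whole larvae in the fourth instar at 72 h, in 2 libraries of untreated controls and 2 libraries of larvae given the herbicide diquat at 1/5 of the LC50, the concentration that kills at the median. Diquat is a bipyridyl compound that passes electrons to oxygen. No source describes the libraries of a group as separate batches of larvae, so p-values measure only the spread between these libraries, which may be technical. The test used here (limma) pools that spread over genes of like level. Its small p-values and standard errors (SE) thus do not rest on each gene's own libraries alone.

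Initiation begins with eIF1, eIF1A, eIF3 and eIF5 on the small ribosomal subunit, to which eIF2 brings the initiator tRNA. The eIF4 proteins bind the mRNA cap and open the leader, and eIF5B joins the large subunit. The eEF1 complex then delivers each aminoacyl-tRNA, eEF2 moves the ribosome by a codon, and the release factors free the chain at a stop codon. Production of these factors is known in animals to be tied to growth and nutrition through the TOR kinase, and their activity to stress through kinases that phosphorylate eIF2.

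Values are normalized counts, which the authors obtained by dividing read counts by 1 factor per library. Libraries held 34502559 and 39242657 reads in controls and 45243090 and 48383964 with diquat. A mean of at least 10 normalized counts was required for testing, which 17992 genes and 53 of the 55 factors met. Transcript lengths are not in the sources used here, so levels were compared between libraries and not between genes. Markers fixed for a whole larva were present: of 43 genes named larval cuticle protein or hexamerin, none was without reads. Read counts in bulk RNA cannot tell a change in the number of cells of a type from a change in RNA per cell.

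Transcripts of translation factors were mostly higher in the diquat libraries. Of 53 tested factors, 43 rose, 3 fell and 7 did not pass (limma with Benjamini-Hochberg adjustment over all tested genes, at 0.05). Over all tested genes 26.7% were called higher and 22.0% lower, 48.8% in all. The median log2 fold change of the factors was 0.42, against -0.00 over all tested genes. Changes were small in size: 11 called factors, 10 of them higher, moved at least 1.5-fold, and 1 moved at least 2-fold. Of all tested genes 9.36% were called at least 1.5-fold higher and 5.15% at least 2-fold in either direction. Both diquat libraries lay above both controls in 44 of the 53 factors and below both in 6, against 37.4% and 35.5% of all tested genes. Together the 55 genes took 1.88% of reads in each control library and 2.56% in each diquat library, with exact 95% binomial intervals within 0.005 percentage points of each value for counting error only.

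Level bears on these counts. Abundant transcripts carry less counting error, and the median log2 fold change also differed by level, for a reason that was not tested. Among the 538 tested genes with a mean of at least 10000, 67.5% were called higher and 24.7% lower, and their median log2 fold change was 0.22. Of the 20 factors at that level 19 were called higher and 1 lower, with a median log2 fold change of 0.51. From 1000 up to 10000, 42.9% of genes were called higher, and 22 of 26 factors were, with medians of 0.05 over the genes and 0.39 over the factors. Over all 46 factors with a mean of at least 1000, 41 were called higher and 2 lower, against 45.6% and 35.0% of genes at those levels. The 4 tested factors below 100 held no called rise and 1 called fall, where 5.22% of the 5344 genes from 10 up to 100 were called higher and 9.0% lower. Tissue markers moved as well: muscle genes (myosin heavy chain, troponin and tropomyosin) had 8 higher and 3 lower of 11, summing to between 560300 and 563368 normalized counts in controls and between 732765 and 735478 with diquat. Midgut genes (trypsin, peritrophin and aminopeptidase N) had 39 higher and 9 lower of 75 tested, with sums from 290374 to 291420 and from 307104 to 309192, and 5 of all 98 had no reads. Neuronal genes had 0 higher and 5 lower of 8, with sums from 13124 to 13340 and from 10331 to 10851. Larval cuticle and hexamerin genes had 2 higher and 27 lower of 39 tested, with sums from 1056130 to 1059890 and from 856481 to 857838. Haemocyte genes had 2 higher and 1 lower of 3, with sums from 14714 to 15120 and from 16684 to 16860. The part of tissue makeup in the factors' values was not tested.

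**Figure D1:**
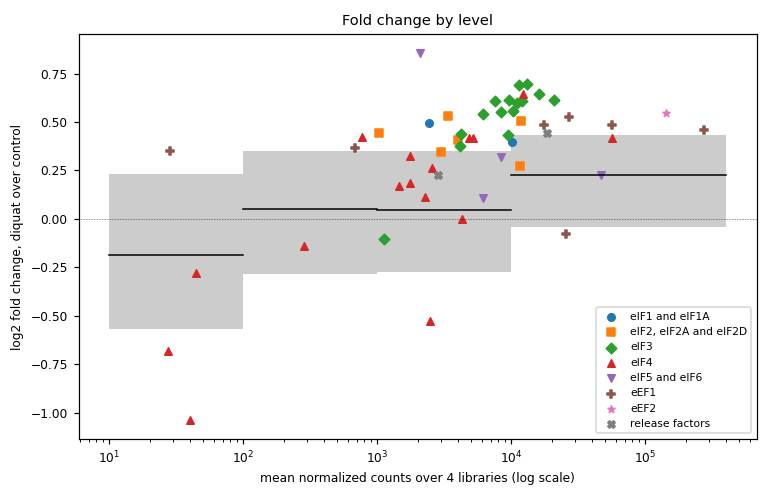
Log2 fold change of each tested translation factor against its mean normalized counts over the 4 libraries (log axis), with marker shapes for the factor groups. Grey bands span the quartiles of all tested genes in 4 ranges of level and black lines their medians: most factors above 1000 lie over the median line, while 3 of the 4 factors below 100 lie under 0.

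**Figure D2:**
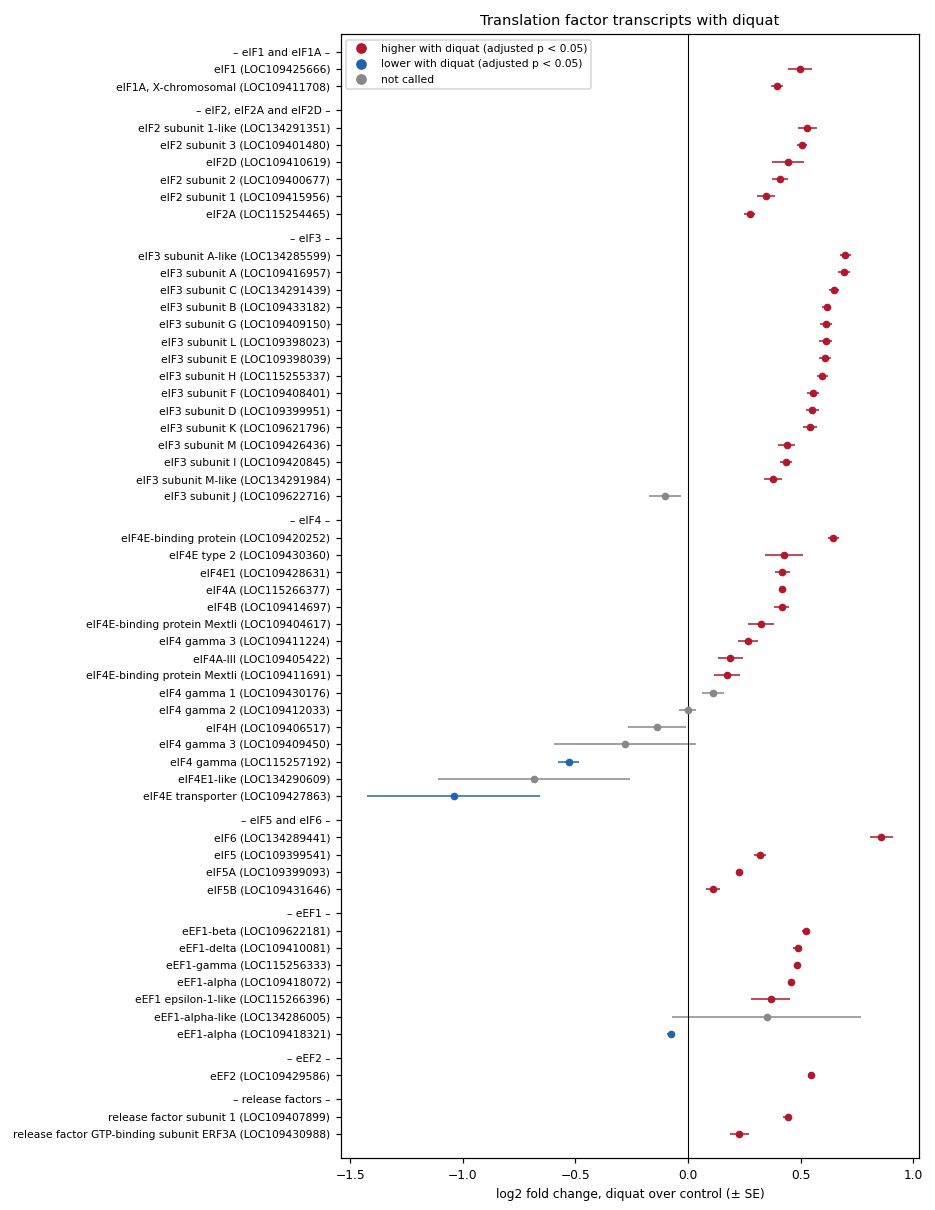
Log2 fold change (diquat over control, with the moderated standard error as bars, n = 2 libraries per group) of all 53 tested factors, grouped by role. Red points are the 43 higher calls, blue points the 3 lower calls and grey points the 7 genes that did not pass.

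The factors that scan for the start codon rose. eIF1 (LOC109425666), which guards against wrong start codons, had 2115 and 1942 normalized counts in controls and 2709 and 3018 with diquat. The log2 fold change was 0.50 ± 0.05 (SE, n = 2 per group; limma adjusted p = 1.57e-08). eIF1A (LOC109411708), its partner on the small subunit, had 8732 and 8741 in controls and 11608 and 11368 with diquat, a log2 fold change of 0.39 ± 0.03 (SE) that was 0.25 under quantile normalization. In both genes the groups lay apart. eIF1A lies inside a long noncoding RNA gene (LOC134291749), and its own value was 52.0% of that gene's.

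All 6 genes of the eIF2 group rose, with log2 fold changes from 0.27 to 0.53 and a median of 0.43. eIF2 is a trimer that carries the initiator tRNA, and its alpha subunit (subunit 1) is the target of the stress kinases. A pair of genes bears that name. LOC134291351 had 2701 and 2769 normalized counts in controls and 3864 and 4032 with diquat, and LOC109415956 had 2645 and 2649 against 3406 and 3323. The log2 fold changes were 0.53 ± 0.04 and 0.35 ± 0.04 (SE). The ratio of the first to the second was 1.02 and 1.05 in controls and 1.13 and 1.21 with diquat. The beta subunit (subunit 2, LOC109400677), with 3408 and 3468 in controls and 4560 and 4564 with diquat, rose by 0.41 on the log2 scale, a value of 0.25 when each library's trend on genomic span was removed.

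The gamma subunit of eIF2 (subunit 3, LOC109401480), which holds the GTP and the tRNA, had 9792 and 9599 normalized counts in controls and 13770 and 13757 with diquat, a log2 fold change of 0.51 ± 0.02 (SE; limma adjusted p = 1.16e-15). The table names this gene both for that subunit and for the histone methyltransferase Su(var)3-9. In Drosophila the same pair of proteins comes from a shared locus by alternative splicing. Gene counts do not part the products. eIF2A (LOC115254465) and eIF2D (LOC109410619), which can bring tRNA to the ribosome outside the eIF2 route, had log2 fold changes of 0.27 and 0.44. The first went from 10512 and 10388 to 12631 and 12637, and the second from 929.3 and 828.4 to 1181 and 1209. With the span trend removed these values were 0.18 and 0.28, and that of eIF2A was 0.14 under quantile normalization.

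eIF3, the largest initiation factor and the scaffold between the small subunit and the eIF4 proteins, rose in nearly all of its subunits. Of 16 genes named for its subunits 15 were tested: 14 rose, 1 did not pass and the median log2 fold change was 0.60. The 14 that rose lay between 0.38 and 0.70, and the middle 50% of them between 0.54 and 0.61. Together the 16 genes took 0.282% and 0.283% of reads in controls and 0.425% and 0.419% with diquat.

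Subunits A, B and C form much of the core that other subunits join. Subunit A (LOC109416957) had 8924 and 8659 normalized counts in controls and 14477 and 13927 with diquat, and a second gene of that name (LOC134285599) had 10029 and 9871 against 16463 and 15801. Their log2 fold changes were 0.69 and 0.70, and the ratio of the second to the first stayed between 1.12 and 1.14 in the 4 libraries. No source used here says how reads were divided between such copies. Subunit C (LOC134291439) had 12749 and 12480 in controls and 19793 and 19686 with diquat (log2 fold change 0.65 ± 0.02, SE). Subunit B (LOC109433182) had 16420 and 16255 against 24971 and 25058 (0.61 ± 0.02, limma adjusted p = 1.27e-19).

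The remaining subunits filled the same range. Subunits G and L, the former an RNA-binding subunit of the mRNA channel in yeast, stood at 0.61 and 0.61 on the log2 scale, E at 0.61, H at 0.60, F and D at 0.56 and 0.55, and K at 0.54. Subunit D (LOC109399951), a cap-binding subunit in human cells, had 6831 and 6776 normalized counts in controls and 10142 and 9804 with diquat. Subunit M came from a pair of genes with log2 fold changes of 0.44 (LOC109426436) and 0.38 (LOC134291984), the latter 0.21 with the span trend removed, and subunit I (LOC109420845) stood at 0.43.

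Subunit J (LOC109622716) stood apart from the other tested subunits. It had 1182 and 1127 normalized counts in controls and 1136 and 1017 with diquat, so that the groups overlapped. Its log2 fold change was -0.10 ± 0.07 (SE; limma adjusted p = 0.236), and it was called lower with the span trend removed (-0.24). Subunit J is known as a loosely attached member of the complex in yeast and human cells, where it also acts in ribosome recycling. A further gene named subunit A-like (LOC134288040) had 0.00 and 2.09 normalized counts in controls and 1.83 and 0.00 with diquat and was not tested.

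**Figure D3:**
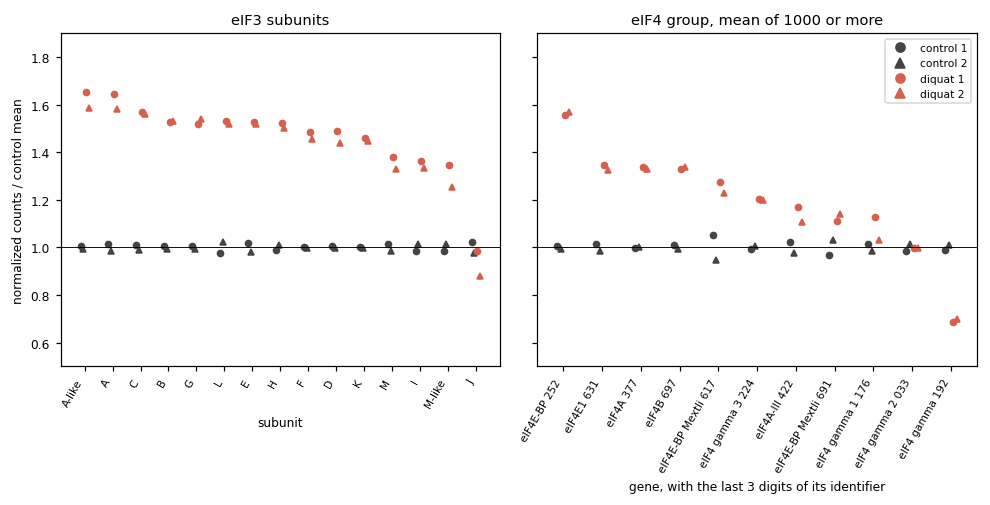
Normalized counts of each gene in each of the 4 libraries, divided by the control mean of that gene (linear axis from 0.5, not starting at 0). Left, the 15 tested genes named for eIF3 subunits, where only subunit J has diquat points among the control points; right, genes of the eIF4 group with a mean of 1000 or more, which spread from an eIF4E-binding protein at the top to an eIF4 gamma gene below 1.

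The eIF4 group, which binds the cap and unwinds the leader, had called changes in both directions, most of them rises. Of 17 genes 16 were tested, with 9 higher, 2 lower and 5 that did not pass. Log2 fold changes ran from -1.04 to 0.64 around a median of 0.18. Over all tested genes 26.7% were called higher and 22.0% lower, and 45.6% and 35.0% of those with a mean of at least 1000. With a mean of at least 50 required, 9 of 13 genes of the group were higher and 1 lower, with a median of 0.26. The RNA helicase eIF4A (LOC115266377) had 48034 and 48062 normalized counts in controls and 64317 and 63901 with diquat, a log2 fold change of 0.42 ± 0.01 (SE; limma adjusted p = 1.8e-19) that was 0.21 under quantile normalization. Its helper eIF4B (LOC109414697) stood at 0.42, from 4506 and 4431 to 5940 and 5978. Another helper, eIF4H (LOC109406517), did not pass, at 278.7 and 317.2 in controls and 268.5 and 271.4 with diquat. The related helicase eIF4A-III (LOC109405422), a core protein of the exon junction complex, had a log2 fold change of 0.19 ± 0.05 (SE; limma adjusted p = 0.00596), a call lost without diquat replicate 1 and with a constant variance prior (adjusted p = 0.117 in each).

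The cap-binding protein eIF4E (LOC109428631) had 4192 and 4057 normalized counts in controls and 5562 and 5462 with diquat, a log2 fold change of 0.42 ± 0.03 (SE). It partly overlaps a neighbouring gene (LOC109422464) with 32.7% of its value. eIF4E type 2 (LOC109430360), whose mammalian relative binds caps in repression, stood at 0.42 with 605.2 and 708.4 in controls and 892.5 and 865.4 with diquat, a call lost with a constant variance prior (adjusted p = 0.0603). A pair named eIF4E1-like was scarce. LOC134290609 had 25.1 and 42.8 in controls and 24.7 and 16.2 with diquat, and LOC134286478, with a mean under 10, was not tested.

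Proteins that hold eIF4E rose or fell by gene. The eIF4E-binding protein (LOC109420252), the inhibitor that the TOR kinase switches off, had 9566 and 9471 normalized counts in controls and 14815 and 14934 with diquat. Its log2 fold change of 0.64 ± 0.02 (SE; limma adjusted p = 4.17e-18) was the highest of the eIF4 group. Mextli, an eIF4E-binding protein that promotes translation in Drosophila, is the name of a pair of genes at 0.33 (LOC109404617) and 0.17 (LOC109411691) on the log2 scale. The call of the latter was lost without control replicate 1 and without either diquat library, with adjusted p from 0.0652 to 0.143, and under 3 other settings. That of the former was lost with a constant variance prior (adjusted p = 0.0634). The eIF4E transporter (LOC109427863), a repressor that moves eIF4E, was singled out after its values were seen: it had 40.7 and 67.8 in controls and 34.8 and 17.9 with diquat, log2 fold change -1.04 ± 0.38 (SE; limma adjusted p = 0.0269). That call was lost without control replicate 2 (adjusted p = 0.244) and without diquat replicate 2 (adjusted p = 0.311), and in 4 other alternatives of 16. It rests on 21 to 65 reads per library.

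The eIF4G scaffolds, which join eIF4E, eIF4A and eIF3, differed among themselves. The gene named eIF4 gamma (LOC115257192) fell from 2892 and 2955 normalized counts in controls to 2004 and 2046 with diquat, a log2 fold change of -0.53 ± 0.05 (SE; limma adjusted p = 2.57e-10). That value was -0.27 with the span trend removed. A gene named eIF4 gamma 3 (LOC109411224) went the other way, from 2307 and 2332 to 2796 and 2778 (log2 fold change 0.26 ± 0.04). The ratio of the second to the first was 0.80 and 0.79 in controls and 1.40 and 1.36 with diquat. LOC109411224 lies inside a gene named 4-coumarate--CoA ligase 1 (LOC109411226), whose reads can overlap its own. Genes named eIF4 gamma 1 (LOC109430176) and eIF4 gamma 2 (LOC109412033), the latter known in mammals for translation without eIF4E, did not pass. Their log2 fold changes were 0.11 ± 0.05 and -0.00 ± 0.04 (SE). Both depended on the setting. The former was called higher with TMM scaling and without control replicate 1 or diquat replicate 2. The latter was called higher with the span trend removed, at 0.12. A second eIF4 gamma 3 gene (LOC109409450) had 47.8 and 50.1 in controls and 39.4 and 41.0 with diquat and did not pass.

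All 4 genes named eIF5, eIF5A, eIF5B or eIF6 were called higher, by unequal amounts. eIF6 (LOC134289441), which keeps the large subunit from joining too early and takes part in its assembly, had the largest rise of the 53 tested factors. It had 1499 and 1441 normalized counts in controls and 2683 and 2642 with diquat, a log2 fold change of 0.86 ± 0.05 (SE; limma adjusted p = 1.06e-13). With the span trend removed the eIF6 value was 0.693, no longer the largest, against 0.694 for the second eIF3 subunit A gene (LOC134285599). eIF5 (LOC109399541), which triggers GTP hydrolysis by eIF2, went from 7461 and 7425 to 9207 and 9381, a log2 fold change of 0.32 that was 0.19 under quantile normalization.

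eIF5A (LOC109399093), which helps the ribosome past difficult peptide bonds, had 42884 and 42487 normalized counts in controls and 49806 and 50098 with diquat. Its log2 fold change of 0.23 ± 0.01 (SE) was 0.05 under quantile normalization, and its call was lost with a constant variance prior (adjusted p = 0.0532). eIF5B (LOC109431646), the GTPase of subunit joining, stood at 0.11 ± 0.03 (SE; limma adjusted p = 0.00495) with 6032 and 5846 against 6463 and 6358. The eIF5B value moved with the processing: it was 0.02 under quantile normalization and 0.39 with the span trend removed, and its call was also lost without diquat replicate 1 (adjusted p = 0.0811) and with a constant variance prior (adjusted p = 0.212).

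Elongation factors rose, other than the further eEF1-alpha genes. The main eEF1-alpha gene (LOC109418072), the GTPase that delivers aminoacyl-tRNA, had 231088 and 230204 normalized counts in controls and 317254 and 316565 with diquat. This was a log2 fold change of 0.46 ± 0.01 (moderated SE; limma adjusted p = 1.44e-25). With a constant variance prior the limma adjusted p was 0.0206, so the size of the former rests on the variance pooled by level. Other subunits of eEF1 stood close to it, with log2 fold changes of 0.52 for eEF1-beta (LOC109622181), 0.49 for eEF1-delta (LOC109410081) and 0.48 for eEF1-gamma (LOC115256333). Under quantile normalization the 3 values were 0.34, 0.32 and 0.27. eEF1-beta had 22381 and 21725 in controls and 31699 and 31707 with diquat. The gene named eEF1 epsilon-1-like (LOC115266396), whose mammalian relative belongs to the aminoacyl-tRNA synthetase complex, had a log2 fold change of 0.37 ± 0.09 (SE), a call lost without diquat replicate 2 (adjusted p = 0.0605) and with a constant variance prior (adjusted p = 0.0688).

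A second eEF1-alpha gene (LOC109418321), whose protein model the annotation marks as low quality, had 26164 and 26000 normalized counts in controls and 24400 and 25056 with diquat. Its log2 fold change was -0.08 ± 0.02 (SE; limma adjusted p = 0.00107), and it turned to 0.02 with the span trend removed. The call was lost without diquat replicate 1 (adjusted p = 0.0764) and with a constant variance prior (adjusted p = 0.335), and the value was -0.28 under quantile normalization. Its ratio to the main gene was 0.113 in each control library and 0.0769 and 0.0791 with diquat. An eEF1-alpha-like gene (LOC134286005) had 16.7 and 34.4 in controls and 33.0 and 29.0 with diquat and did not pass.

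eEF2 (LOC109429586), the translocase, is encoded by 1 gene in the table. It had 115286 and 115006 normalized counts in controls and 168809 and 167441 with diquat, a log2 fold change of 0.55 ± 0.01 (SE; limma adjusted p = 5.17e-25). No alternative that included it moved that value outside 0.53 to 0.61. Termination followed the same direction: release factor subunit 1 (LOC109407899), which reads the stop codons, had 15466 and 15597 in controls and 20932 and 21270 with diquat. Its log2 fold change of 0.44 ± 0.02 (SE) was 0.26 under quantile normalization, and a gene nested inside it (LOC115267400) held 6.61% of its value. The GTP-binding subunit ERF3A (LOC109430988), which helps the first subunit act, stood at 0.23 ± 0.04, from 2594 and 2668 to 3022 and 3142. Its call was lost with a constant variance prior (adjusted p = 0.0649).

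Related genes of translation were taken from lists of product names outside the rule. Their counts stand beside the 26.7% of all tested genes called higher and the 22.0% called lower. The guanine exchange factor eIF2B, which reloads eIF2 with GTP and is blocked by phosphorylated eIF2, has 5 subunits, and all 5 genes rose. The epsilon subunit (LOC109397885), its catalytic part, had 809.7 and 753.3 normalized counts in controls and 1198 and 1319 with diquat, a log2 fold change of 0.69 ± 0.07 (SE). The beta, gamma, alpha and delta subunits stood at 0.45, 0.45, 0.47 and 0.24, and 2 calls did not hold throughout. That of the gamma subunit was lost without diquat replicate 1 (log2 fold change 0.34) and with a constant variance prior (limma adjusted p = 0.097). That of the delta subunit was lost without control replicate 1 or either diquat library (log2 fold changes from 0.16 to 0.32). It was also lost with DESeq2 (adjusted p = 0.141) and in limma without a filter, with a constant variance prior and under quantile normalization (adjusted p from 0.0607 to 0.21). The beta, gamma and alpha genes overlap other genes with larger values.

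Regulators of translation rose in 8 and fell in 2 of 11 tested genes, with a median log2 fold change of 0.45. The shares over all tested genes were 26.7% higher and 22.0% lower, and the 18.2% of regulators that fell was near the latter. The number that rose was 4 and the number that fell 0 with a constant variance prior, and 1 fell without control replicate 2 or without diquat replicate 1. The fall that was lost there was that of LOC134290652, an eIF2-alpha kinase-like gene singled out after its values were seen, at 35.9 and 38.6 normalized counts in controls and 8.25 and 28.2 with diquat. Its log2 fold change of -1.22 was -0.39 without diquat replicate 1. The call was also lost with DESeq2 (adjusted p = 0.172) and edgeR (adjusted p = 0.0709). In limma it was lost without a filter (adjusted p = 0.0883) and under quantile normalization (adjusted p = 0.109). The other genes named for eIF2-alpha kinases had positive log2 fold changes. Called higher were LOC109427298 (0.52), LOC109418329 (0.36), LOC109432321 (0.78), the GCN2 gene LOC109397123 (0.77) and the GCN2-like gene LOC134289571 (0.38). LOC134291776 stood at 0.62 and did not pass. Each of those higher calls was lost with a constant variance prior. That of LOC134289571 was also lost with DESeq2 (adjusted p = 0.141), and without control replicate 2 or either diquat library. In limma it was lost without a filter (adjusted p = 0.07) and under quantile normalization (adjusted p = 0.0652). The LOC109397123 call was also lost without control replicate 2 (0.55) or diquat replicate 1 (0.73), and that of LOC109432321 without diquat replicate 2 (0.61). Programmed cell death protein 4 (LOC109408930), an inhibitor of eIF4A in mammals, had 14259 and 13586 normalized counts in controls and 19022 and 19080 with diquat, a log2 fold change of 0.45 ± 0.02 (SE). It partly overlaps an uncharacterized gene (LOC134284823) with 36.7% of its value. GCN1 (LOC109424031), which senses stalled ribosomes for the kinase GCN2, stood at 0.55 and the kinase mTor (LOC109429896) at 0.41. Ribosomal protein S6 kinase beta-2 (LOC109418942), a target of mTor, had a log2 fold change of -0.36 ± 0.05 (SE) with 2371 and 2395 in controls and 1758 and 1968 with diquat. A constant variance prior ended that call (adjusted p = 0.0536).

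Enzymes that modify the factors were among the 14 partner genes, of which 9 rose and 1 fell, against 26.7% and 22.0% of all tested genes. The number that rose was 6 without diquat replicate 1, 5 without diquat replicate 2 and 4 with a constant variance prior. Deoxyhypusine hydroxylase (LOC109413668), which completes the hypusine residue that eIF5A needs, had 2926 and 3009 normalized counts in controls and 4990 and 4969 with diquat, a log2 fold change of 0.75 ± 0.04 (SE; limma adjusted p = 3.91e-15). It partly overlaps a gene (LOC109425010) with 17.3% of its value. Diphthine methyltransferase-like (LOC109404501), named for the pathway that builds diphthamide on eEF2 and also for ensconsin, stood at 0.71. The poly(A)-binding protein that the table names 4-like (LOC109407505), which bridges the mRNA tail to eIF4G, rose by 0.20 on the log2 scale from 79473 and 79791 to 91810 and 91449. Its value was 0.0025 under quantile normalization (adjusted p = 0.818), and a constant variance prior ended the call (adjusted p = 0.0648). Polyadenylate-binding protein 2 (LOC109405147), a nuclear protein of tail synthesis, fell by 0.44.

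Mitochondria use a separate set of translation factors of bacterial type. Of 11 tested genes 9 rose and 2 did not pass, with a median log2 fold change of 0.54. Over all tested genes 26.7% were called higher. With DESeq2 8 rose, and without overlapping genes 5 of the 6 tested did. The call of the ribosome-recycling factor (LOC109408032) was lost with DESeq2 and with the span trend removed, among other settings. Without diquat replicate 2 that call was lost (log2 fold change 0.33), and so was that of the GUF1 homolog (LOC109414223), at 0.50 against 0.61. IF-3 (LOC109410628) lies inside a long noncoding RNA gene of larger value. A pair named elongation factor G, mitochondrial stood at 0.60 (LOC109404794) and 0.62 (LOC109423879), the former with 2086 and 2071 normalized counts in controls and 3147 and 3163 with diquat. Elongation factor Ts (LOC109420665) stood at 0.54 and a gene named elongation factor Tu-like (LOC134288472), which lies inside another gene of larger value, at 0.57. Mitochondrial IF-2 (LOC115266888), singled out after its values were seen, did not pass, with 177.0 and 135.6 in controls and 121.0 and 108.4 with diquat, and was called lower without control replicate 2. For comparison, cytosolic ribosomal protein genes had 80 higher and 1 lower of 86 tested and a median log2 fold change of 0.34, which became 68 higher, 8 lower and 0.17 under quantile normalization.

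**Figure D4:**
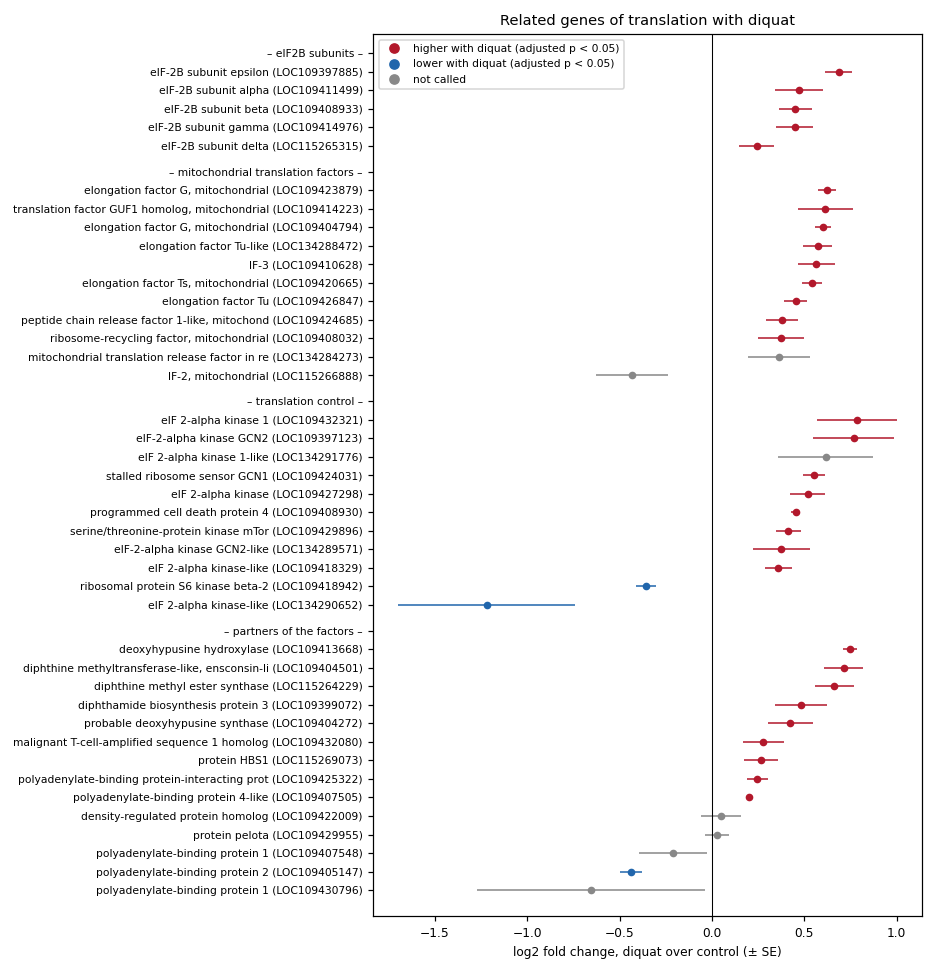
Log2 fold change (diquat over control, bars the moderated standard error, n = 2 libraries per group) of tested genes in 4 lists of related translation genes. Red points mark higher calls, blue points lower calls and grey points genes that did not pass: all 5 eIF2B subunits are red, and the blue points are an S6 kinase, an eIF2-alpha kinase-like gene and polyadenylate-binding protein 2.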

How the data were processed

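The authors deposited 1 table of normalized signal (normalized counts), per the file headers, for 2 control and 2 diquat libraries of whole larvae. STAR 2.7.10a, fastp 0.12.4, bcl2fastq and DRAGEN are listed, without their roles, in the submitters' processing notes. For the counter, build, annotation, strand setting and normalizing tool, the sources used here give nothing. All values were whole multiples of the smallest value above 0 of their library (100% at a relative tolerance of 1e-06), which gave back whole reads. Gene overlaps and genomic spans came from the AalbF5 reference table, whose identifiers matched all 25320 genes. Overlapping genes can share reads: in all 1763 nested pairs checked (inner mean of at least 100) the inner gene did not exceed the outer. Of the 55 factors, 11 overlap another gene and 2 are on unplaced sequence, where overlap is not known.

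Diquat was compared with control by limma 3.58.1 in R 4.3.3 (mean trend, two-sided) on log2(value + 1), a scale that understates changes of low genes, for genes with a mean of at least 10, with Benjamini-Hochberg adjustment over all 17992 tested genes. No set test was run. On the recovered reads edgeR 4.0.16 called 8829 genes and DESeq2 1.42.0 called 7243, against 8772 in limma. The tests were tried on simulated data. The members, lists and tests were chosen with earlier results of these data known. Named factors were, in each role, those of highest mean, smallest adjusted p and largest change, all of roles with 6 or fewer tested genes, and the 5 largest rises and falls (mean of at least 50). Others are given as values of their role, chosen after their values were seen. In each related list up to 4 genes of smallest adjusted p were named, and others given as values of the list. Alternatives were other pseudocounts, filters, scalings, variance prior, tools, a replicate block, each library left out, overlapping genes left out and the trend on span removed (loess, span 0.3). Summaries and figures used Python 3.11.15.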

Additional observations from a re-analysis of the deposited data

How the results depend on the processing

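Under 17 alternatives the number of factors called higher ran from 33 (of 41, without overlapping genes) to 44 of 53, and the number called lower from 2 to 3. With a constant variance prior 35 were called higher, and limma adjusted p-values were far larger. They were 0.0206 for the main eEF1-alpha gene, 0.0184 for eEF2 and 0.0154 for eIF6. Median-ratio scaling divided every library by the same factor (1.0061), so its equal result was fixed in advance and is no separate check. The median log2 fold change of the factors was 0.43 with a mean of at least 50, 0.43 with TMM scaling, 0.34 with quantile normalization, 0.41 with edgeR, 0.41 with DESeq2, 0.44 without overlapping genes and 0.40 with the span trend removed. With 1 library left out it lay between 0.41 and 0.43. Over all genes 4955 were called without overlapping genes, where 10461 were tested. Of 46 called factors 36 kept their call in all alternatives that included them, and 45 their direction. The exception in direction was the second eEF1-alpha gene (LOC109418321), at 0.015 with the span trend removed. The cause was not tested. With the replicate number as a replicate block 43 factors were higher and 3 lower, and 9056 genes were called. Samples of the same number did not deviate together (r = 0.01 across 17992 genes, which are not independent). That value cannot show whether the numbers pair the libraries, because replicate differences of scarce genes hold much counting error. Depth limits the 6 factors with means under 100, of which 4 were tested.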

Other observations

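Some translation factors lie inside other annotated genes, and how reads were assigned there is not known. The long noncoding RNA gene LOC134287444 holds eEF2 in the AalbF5 annotation and had 157438 and 157106 normalized counts in controls and 223459 and 222346 with diquat. The eEF2 value was 74.5% of it. Of the 55 factors, 14 have any Gene Ontology term in the deposited table, and 12 carry the term for translation initiation factor activity, so a list drawn from those terms would hold fewer of them than the product names do. In the AalbF5 annotation no 2 of the 53 factors placed on a chromosome were next to each other.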
